A study of Mus musculus with 10 samples.

Results

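Antioxidant and thiol redox genes encode the enzymes that remove superoxide and peroxides and that keep protein thiols reduced. A list of 40 such genes was read in islets of Langerhans, where the endocrine cells of the pancreas sit, from 2 inbred strains of mice. The members were taken by symbol from probe sets annotated to exactly 1 gene, with the probe set of the highest mean over the 10 arrays kept per gene, and 38 of the 40 were measured among 19938 genes in all. The peroxiredoxin genes Prdx5 and Prdx6 were not analysed here. The rule uses known function and overall brightness, and no difference between the strains. The list itself was chosen with earlier results of these data known, so shares of its members called are descriptions and not tests.

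The study compared NZO mice (NZO/Hl), which are obese and prone to diabetes, with C3H mice, using 5 arrays per strain. The protocols call the C3H mice C3HeB/FeJ, and their strain label gives C3H with a Jackson Laboratory stock number. The study's stated purpose was to find candidate genes within a critical region of the genome. All mice were male and 6 weeks old, and all had been fed a fat-rich diet (45% of energy as fat) from weaning, at day 21, onwards. After isolation with collagenase, all islets spent a night at 37 °C in serum-containing medium with 10 mM glucose and 0.05 mM β-mercaptoethanol, a thiol reductant, so the levels are those of islets cultured with a reductant. Titles on most arrays carry a pair of animal numbers, that of NZO replicate 4 carries a single number and that of NZO replicate 5 a range. Whether an array holds pooled or single animals is not stated, and p-values reflect only how these samples spread.

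The chemistry runs in relays. Superoxide dismutases turn superoxide into hydrogen peroxide, and catalase, glutathione peroxidases and peroxiredoxins remove the peroxide. Glutathione reductase and thioredoxin reductases then restore the spent thiols with NADPH, and the factor NRF2, held in check by its sensor KEAP1, switches on many of these genes. Beta cells, the insulin-secreting cells of the islet, are known for low catalase and glutathione peroxidase activity compared with liver.

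The values are log2 RMA intensities. The median of all probe sets on an array was 6.93 to 7.05, highest on C3H replicate 4, and arrays of a strain correlated at 0.983 to 0.997 over all genes. Islet hormones were bright in both strains, with Ins2 at 12.45 ± 0.15 in NZO and 12.33 ± 0.07 in C3H (SD, n = 5 each). Some other endocrine markers were lower in NZO. Of 11 beta cell markers 4 were lower (Slc2a2 by -1.54, Ucn3 by -1.12, Slc30a8 by -1.10 and Isl1 by -0.79 log2 units). The other 7 did not pass, and over the 11 beta cell markers 3 differences were positive and 8 negative. Lower too were 4 of 5 delta and PP cell markers, among them the hormones Sst (-0.75) and Ppy (-0.41). None of the 3 alpha cell markers measured passed, with Gcg at -0.04. An acinar score, the mean of 24 digestive enzyme and other acinar genes, came to 9.80 to 10.38 on NZO replicates 1 to 3, 11.86 on NZO replicate 4 and 11.73 on NZO replicate 5, against 7.99 to 8.86 on the C3H arrays, and 23 of the 24 were higher in NZO. Among 14 macrophage markers 6 were higher and 1, Cx3cr1 (-0.28), lower in NZO, with array means of 7.55 to 8.64 in NZO and 7.49 to 7.62 in C3H. The duct markers Krt19 (1.55) and Muc1 (1.58), 2 of 6 measured, and the stellate cell marker Pdgfra (1.25), 1 of 10, were higher in NZO too. The other duct and stellate markers did not pass. Krt7, the brightest duct marker, differed by 0.02, and 1 marker of each list was negative (Tspan8 at -0.32 and Acta2 at -0.16). All 10 endothelial markers had positive differences, with a median of 0.24, and 2 passed (Emcn at 0.51 and Eng at 0.39). The part of these cell types in the differences below was not tested beyond the fits named beside them. In bulk islets, fewer cells of a type and less RNA per cell cannot be told apart.

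Of the 38 members, 7 differed between the strains at an adjusted p below 0.05 in limma's test over all genes, 3 higher and 4 lower in NZO. That is 18.4% of the members, where 10.1% of all genes tested were called, 5.47% higher and 4.61% lower. Among genes above median brightness, refitted alone, 28.6% of 35 members and 17.2% of 9969 genes (9.12% higher and 8.08% lower in NZO) were called; calls were more frequent among bright genes as a whole. The higher members were Gpx2, Sod3 and Txnrd1, and the lower ones were Gpx3, Glrx, Gsr and Sesn1. The median difference over the 38 was -0.06 log2 units, beside -0.02 over all genes, and 24 members differed by less than 0.2 log2 units. Just inside the threshold stood Txnrd1 (adjusted p = 0.0309 in limma) and just outside it Sod1 (adjusted p = 0.0508 in limma). Differences were positive in 16 members and negative in 22. The strains did not overlap in 5 members, or 13.2%, where 9.14% of all genes did not overlap (4.96% with NZO above and 4.18% with NZO below). Gpx2 lay above, and Gpx3, Sod1, Gsr and Glrx below, in NZO.

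**Figure D1:**
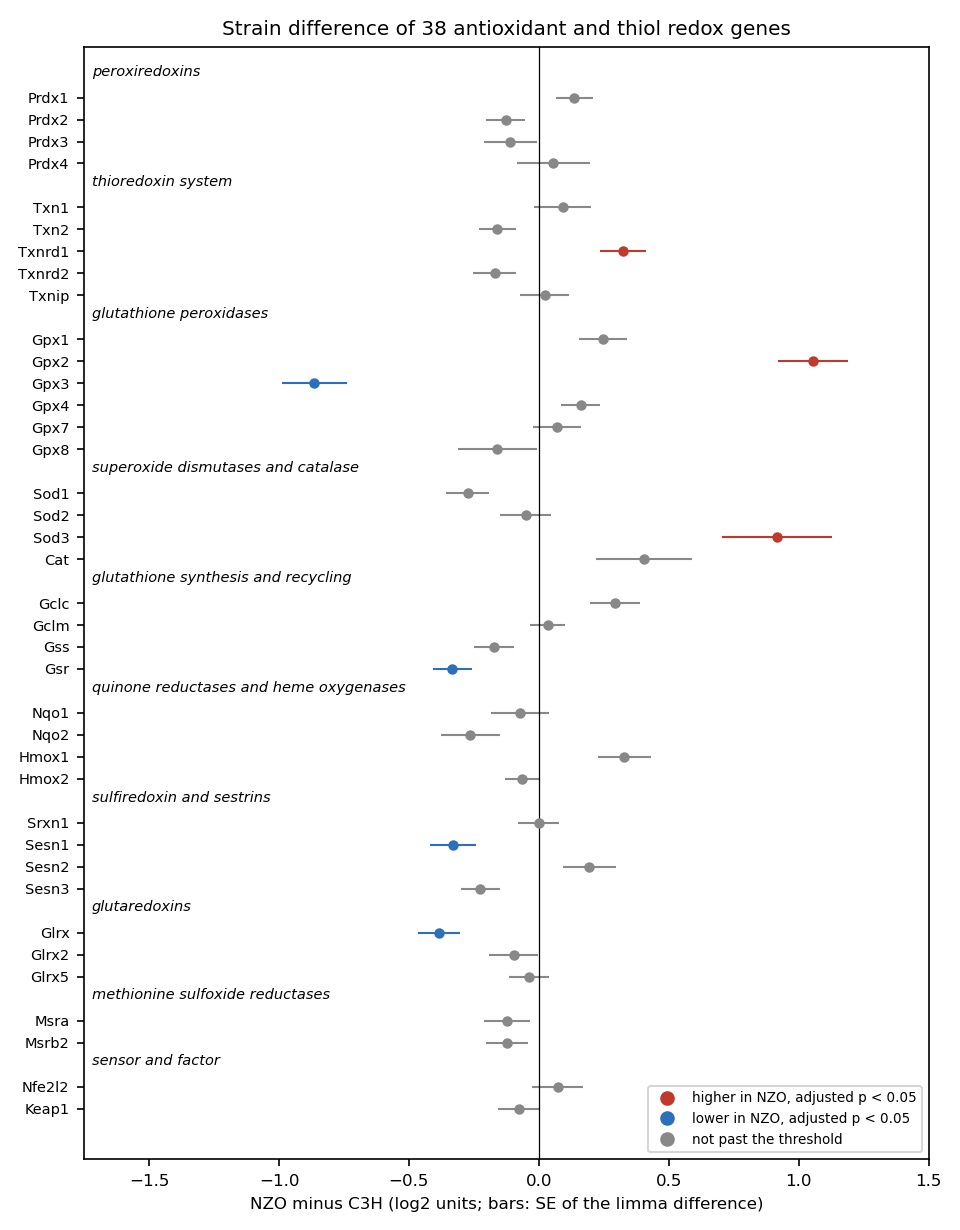
Difference NZO minus C3H in log2 units (x axis) for the 38 measured members (y axis), grouped by enzyme family, with bars for the SE of the limma difference (5 arrays per strain). Gpx2 (1.06), Sod3 (0.92) and Txnrd1 (0.33) are the called genes right of 0, and Gpx3 (-0.86), Glrx (-0.38), Gsr (-0.33) and Sesn1 (-0.33) those left of it.

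The glutathione peroxidases held the 2 members with the smallest p, and they went opposite ways. These enzymes reduce hydrogen peroxide or lipid peroxides with glutathione, and GPX1 to GPX4 carry selenocysteine at the active site in the mouse. Of the 6 measured, Gpx2 was higher, Gpx3 lower and 4 did not pass, with a family median of 0.12. The stretch just before the transcription start of each is shown because these genes carry the main result. Both stretches span bases -100 to -1, the base before the start being -1, 5′ to 3′ on the gene's strand, from RefSeq on GRCm38.p6. Gpx2 lies on the minus strand at chr12:76795555-76795654 and Gpx3 on the plus strand at chr11:54902754-54902853.
Gpx2: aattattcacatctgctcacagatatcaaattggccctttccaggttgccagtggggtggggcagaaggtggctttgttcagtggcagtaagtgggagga
Gpx3: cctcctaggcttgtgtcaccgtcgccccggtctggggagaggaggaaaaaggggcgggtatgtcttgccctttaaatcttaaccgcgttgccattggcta

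Gpx2, the glutathione peroxidase first described in the gut epithelium, read 9.95, 10.24, 9.74, 9.60 and 9.60 on NZO replicates 1 to 5, against 8.92, 8.84, 9.01, 8.42 and 8.66 on C3H replicates 1 to 5. Every NZO array was above every C3H array, with 9.83 ± 0.27 in NZO and 8.77 ± 0.24 in C3H. The difference was 1.06 log2 units (SE 0.14, limma adjusted p = 0.000163), or 2.08-fold. The 2 NZO arrays with the highest acinar score had the lowest Gpx2 values of that strain. The difference was 1.21 without NZO replicates 4 and 5 and 1.49 (SE 0.26, limma adjusted p = 0.0111) with the acinar score as a covariate.

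Gpx3, which encodes the secreted glutathione peroxidase found in plasma, read 11.82, 11.40, 11.18, 11.96 and 11.55 on the NZO arrays, against 12.40, 12.53, 12.38, 12.53 and 12.39 on the C3H arrays. The strains did not overlap, and the NZO arrays spread more widely, at 11.58 ± 0.31 in NZO and 12.45 ± 0.08 in C3H. The difference was -0.86 (SE 0.12, limma adjusted p = 0.000431), a 1.82-fold lower level. It was -0.98 without NZO replicates 4 and 5 and -1.14 with the acinar score as a covariate (SE 0.26, limma adjusted p = 0.0496). Gpx2 and Gpx3 passed in each of the 18 alternative fits.

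The other glutathione peroxidases had smaller differences with all arrays. Gpx1, the cytosolic enzyme, was 10.73 ± 0.14 in NZO and 10.48 ± 0.15 in C3H, a difference of 0.25 (SE 0.09) that did not pass (limma adjusted p = 0.118). Gpx4, which reduces lipid peroxides in membranes, differed by 0.16 (SE 0.08) and by 0.18 in its other probe set. Of the pair that reside in the endoplasmic reticulum and use cysteine, Gpx7 differed by 0.07 (SE 0.09) at mean levels below the array medians, and Gpx8 by -0.16 (SE 0.15). Gpx8 ranged from 7.36 to 8.26 in NZO, where replicates 4 and 5 were the highest, and from 7.66 to 8.14 in C3H. Without NZO replicates 4 and 5 the Gpx8 difference was -0.40 (limma adjusted p = 0.0730). With the acinar covariate it was -0.86 (SE 0.24, limma adjusted p = 0.161), and neither passed.

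**Figure D2:**
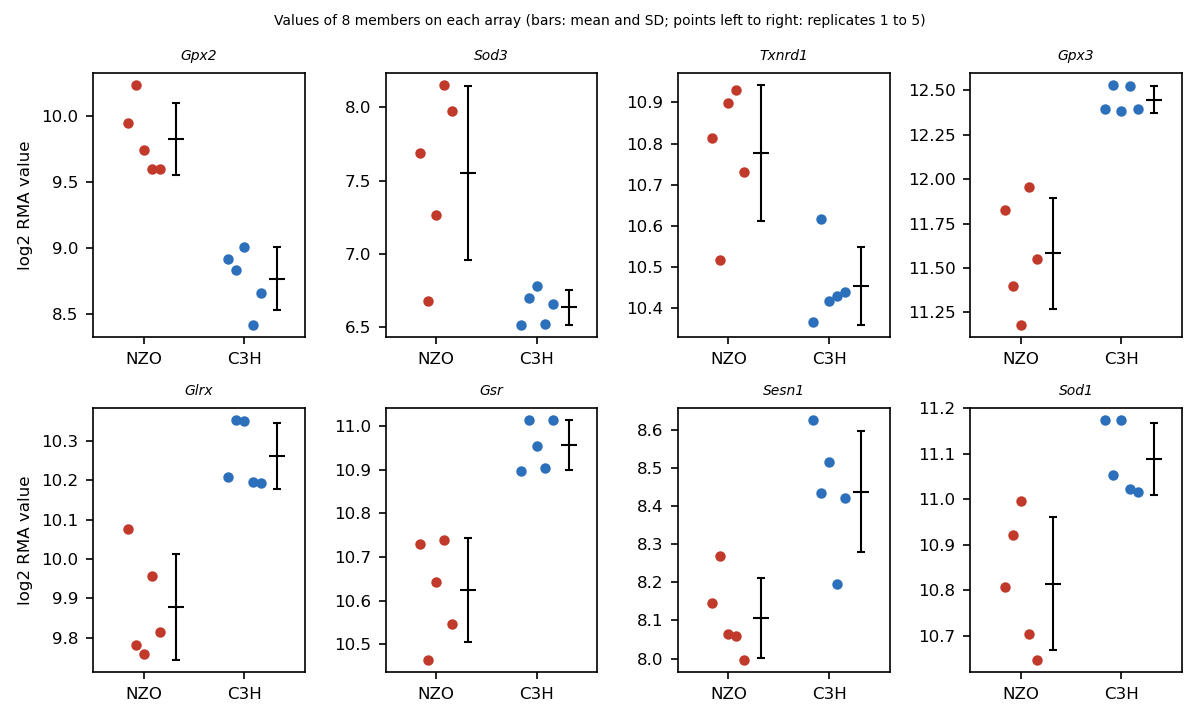
Log2 RMA value (y axis) of 8 members on each of the 5 NZO and 5 C3H arrays, with the mean and SD beside the points. The strains do not overlap for Gpx2, Gpx3, Glrx, Gsr and Sod1, and a single NZO array lies among the C3H arrays for Sod3 and Txnrd1.

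Among the enzymes that take up superoxide and hydrogen peroxide directly, the extracellular superoxide dismutase Sod3 was higher in NZO and the other 3 members did not pass. Sod3 read 7.69, 6.68, 7.26, 8.16 and 7.98 on the NZO arrays, against 6.52, 6.70, 6.78, 6.52 and 6.66 on the C3H arrays. NZO replicate 2 lay within the C3H range and NZO replicates 4 and 5 were the highest of all. The means were 7.55 ± 0.59 in NZO and 6.64 ± 0.12 in C3H, the C3H level lying below every array's median. The difference of 0.92 (SE 0.21, limma adjusted p = 0.0121), or 1.89-fold, was 0.58 without NZO replicates 4 and 5 (limma adjusted p = 0.077) and -0.15 (SE 0.31) with the acinar covariate, and neither passed.

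Catalase (Cat), the heme enzyme of peroxisomes, was likewise highest on NZO replicates 4 and 5 and lowest on NZO replicate 2 within that strain. It read 10.11, 9.67, 10.13, 10.94 and 10.59 in NZO, against 9.82, 10.15, 9.89, 9.67 and 9.88 in C3H. NZO replicates 4 and 5 alone lay above all C3H arrays, and the difference of 0.41 (SE 0.18) did not pass (limma adjusted p = 0.215). It was 0.09 without those 2 arrays. Without NZO replicate 2 it was 0.56 and passed (limma adjusted p = 0.0283).

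Sod1, the cytosolic copper and zinc enzyme, read 10.81, 10.92, 11.00, 10.70 and 10.65 in NZO, against 11.17, 11.05, 11.17, 11.02 and 11.02 in C3H. No NZO array reached a C3H array, but the difference of -0.27 (SE 0.08) missed the threshold (limma adjusted p = 0.0508). It passed in 8 of the 18 alternative fits. The Sod1 difference was -0.18 without NZO replicates 4 and 5 and -0.07 (SE 0.17) with the acinar covariate, and neither passed. Sod2, the mitochondrial manganese enzyme, was 10.45 ± 0.21 in NZO and 10.50 ± 0.08 in C3H, a difference of -0.05 (SE 0.10). Catalase and Sod1 are shown array by array because of their place near the threshold and their spread, a choice made after their values were seen.

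**Figure D3:**
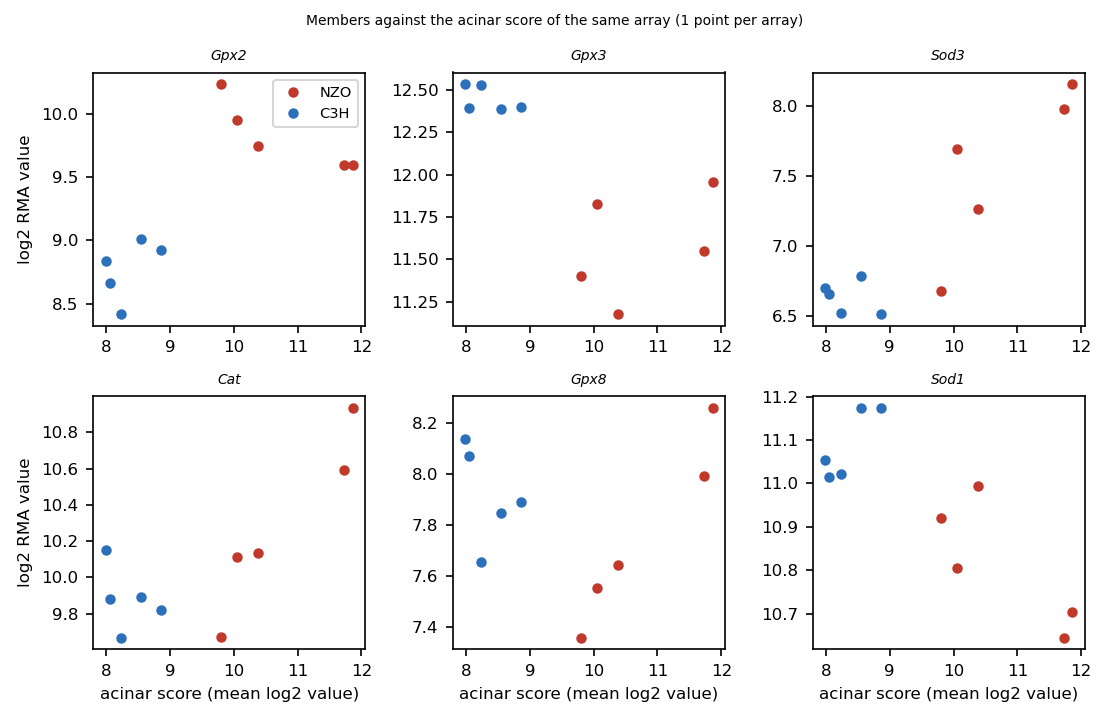
Log2 RMA value (y axis) of 6 members against the acinar score of the same array (x axis, mean log2 value of 24 acinar genes), 1 point per array. Among the NZO arrays, those with scores of 11.73 and 11.86 have the highest Sod3, Cat and Gpx8 values and the lowest Gpx2 and Sod1 values.

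In the thioredoxin system, the reductase Txnrd1 was higher in NZO and the other 4 members did not pass. Thioredoxin reduces disulfides in proteins and peroxiredoxins, its reductases recharge it with NADPH, and the arrestin relative TXNIP binds and inhibits it. Txnrd1, the cytosolic selenoprotein reductase, read 10.81, 10.52, 10.90, 10.93 and 10.73 on the NZO arrays, against 10.36, 10.62, 10.42, 10.43 and 10.44 on the C3H arrays. NZO replicate 2 lay below C3H replicate 2, and the other arrays did not overlap. The means were 10.78 ± 0.17 in NZO and 10.45 ± 0.10 in C3H, and the difference was 0.33 (SE 0.09, limma adjusted p = 0.0309), or 1.25-fold. The call ended when C3H replicate 1, 3 or 5 or NZO replicate 1, 3, 4 or 5 was left out, with differences of 0.29 to 0.39 over all 10 such fits and limma adjusted p up to 0.0894. It also ended without NZO replicates 4 and 5 (0.29) and with the acinar covariate (0.21).

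Txn1, the cytosolic thioredoxin, read 11.95, 11.87, 12.36, 12.30 and 12.26 in NZO, against 12.11, 12.30, 11.86, 11.97 and 12.06 in C3H. The strains overlapped, with a difference of 0.09 (SE 0.11). The mitochondrial pair, thioredoxin Txn2 and reductase Txnrd2, differed by -0.16 (SE 0.07) and -0.17 (SE 0.08), and neither passed (limma adjusted p = 0.198 for Txn2 and 0.257 for Txnrd2).

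Txnip, a gene known to be strongly induced by glucose in islets, was 10.21 ± 0.15 in NZO and 10.18 ± 0.15 in C3H. The difference of 0.02 (SE 0.09, limma adjusted p = 0.940) was within the spread of either strain. Its relative Arrdc4, which is also known as a target of the glucose-responsive factor encoded by Mlxipl, was higher in NZO. Arrdc4 read 9.34, 8.75, 9.18, 9.29 and 9.33 in NZO, against 8.00, 8.32, 8.29, 7.86 and 8.38 in C3H. The difference was 1.01 (SE 0.13, limma adjusted p = 0.000157), or 2.01-fold, with no overlap, and 0.92 without NZO replicates 4 and 5. With the acinar covariate it was 0.77 (limma adjusted p = 0.351). Of 8 genes listed as Txnip relatives or partners of that factor, only Arrdc4 passed, and the list median was 0.02.

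None of the 4 measured peroxiredoxins passed. These thiol peroxidases are among the main consumers of hydrogen peroxide in cells. Prdx1 read 11.07, 11.31, 11.25, 11.20 and 11.22 in NZO, against 11.14, 11.09, 11.05, 11.02 and 11.06 in C3H, a difference of 0.14 (SE 0.07). Prdx2 read 11.31, 11.65, 11.51, 11.43 and 11.47 in NZO, against 11.65, 11.55, 11.56, 11.61 and 11.64 in C3H, a difference of -0.13 (SE 0.08). Both genes overlapped between the strains. Their other probe sets gave 0.13 for Prdx1 and -0.02 for Prdx2, and both genes have processed pseudogenes in the mouse, so the copy each probe set reads is uncertain. The other Prdx2 probe set was dimmer, with means of 9.18 in NZO and 9.20 in C3H, against 11.47 and 11.60 for the one printed. The mitochondrial Prdx3 differed by -0.11 (SE 0.10) and Prdx4, the enzyme of the endoplasmic reticulum, by 0.06 (SE 0.14).

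Of the genes that make and recycle glutathione, the reductase Gsr was lower in NZO and the 3 synthesis genes did not pass. Gsr, which restores oxidised glutathione with NADPH, read 10.73, 10.46, 10.64, 10.74 and 10.55 on the NZO arrays, against 10.90, 11.02, 10.95, 10.90 and 11.01 on the C3H arrays. No NZO array reached a C3H array, with 10.62 ± 0.12 in NZO and 10.96 ± 0.06 in C3H. The difference was -0.33 (SE 0.08, limma adjusted p = 0.0109), a 1.26-fold lower level. It kept this call whichever single array was left out and without NZO replicates 4 and 5 (-0.35). With the acinar covariate the value was -0.37 (SE 0.17) and did not pass.

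Glutamate-cysteine ligase starts glutathione synthesis, and its catalytic subunit Gclc was 10.59 ± 0.17 in NZO and 10.30 ± 0.15 in C3H, a difference of 0.29 (SE 0.10, limma adjusted p = 0.0722). The modifier subunit Gclm read 10.93, 11.08, 11.01, 11.06 and 10.99 in NZO, against 11.00, 11.01, 11.01, 10.87 and 11.00 in C3H, a difference of 0.03 (SE 0.07). Both Gclm groups were tight, and C3H replicate 4 alone stood below the rest of its strain. Glutathione synthetase Gss, which adds the last residue, differed by -0.17 (SE 0.08).

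The glutaredoxins use glutathione to reduce protein disulfides, and all 3 differences were negative. Glrx, the cytosolic enzyme, passed. It read 10.07, 9.78, 9.76, 9.96 and 9.81 on the NZO arrays, against 10.21, 10.35, 10.35, 10.20 and 10.19 on the C3H arrays. The strains did not overlap, at 9.88 ± 0.13 in NZO and 10.26 ± 0.08 in C3H, and the difference was -0.38 (SE 0.08, limma adjusted p = 0.00690), a 1.30-fold lower level. It passed whichever single array was left out and without NZO replicates 4 and 5 (-0.39), and with the acinar covariate it was -0.39 (SE 0.18) without passing. The mitochondrial Glrx2 differed by -0.10 (SE 0.09) and Glrx5, which serves iron-sulfur cluster assembly, by -0.04 (SE 0.08).

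Sestrins are stress-induced proteins that restrain mTORC1, and Sesn1 was lower in NZO. Sesn1 read 8.14, 8.27, 8.07, 8.06 and 8.00 on the NZO arrays, against 8.63, 8.43, 8.52, 8.19 and 8.42 on the C3H arrays. C3H replicate 4 fell within the NZO range and the other C3H arrays lay above it. The difference was -0.33 (SE 0.09, limma adjusted p = 0.0272), with 8.11 ± 0.10 in NZO and 8.44 ± 0.16 in C3H. Dropping NZO replicate 3, 4 or 5, or any C3H replicate except 4, ended the call (limma adjusted p up to 0.0872, differences of -0.39 to -0.28 over all 10 such fits). It also ended without NZO replicates 4 and 5 together (-0.28) and with the acinar covariate (-0.23). Sesn3 differed by -0.23 (SE 0.08, limma adjusted p = 0.0756) and Sesn2 by 0.19 (SE 0.10), so the 3 sestrins did not share a sign. Srxn1, sulfiredoxin, which repairs over-oxidised peroxiredoxins, was 10.44 ± 0.08 in NZO and 10.44 ± 0.13 in C3H.

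Among the detoxifying oxidoreductases, none of 4 passed. Hmox1, the inducible heme oxygenase, which is also high in macrophages, was 10.45 ± 0.15 in NZO and 10.12 ± 0.19 in C3H, a difference of 0.33 (SE 0.10, limma adjusted p = 0.0595). Macrophage markers moved with the strains, as given above, and their part in this value was not tested. The constitutive Hmox2 differed by -0.06 (SE 0.07). Nqo1, a quinone reductase widely used as a readout of NRF2, was 8.50 ± 0.17 in NZO and 8.57 ± 0.22 in C3H (difference -0.07, SE 0.11), and its relative Nqo2 differed by -0.26 (SE 0.11). The methionine sulfoxide reductases, which repair oxidised methionine, differed by -0.12 (SE 0.09) for Msra and -0.12 (SE 0.08) for Msrb2.

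The transcripts of the regulatory pair overlapped between the strains. Nfe2l2, which encodes NRF2, read 10.27, 9.89, 10.13, 10.45 and 10.30 in NZO, against 10.11, 10.26, 10.08, 10.07 and 10.16 in C3H, a difference of 0.07 (SE 0.10). Keap1 read 9.68, 9.72, 9.69, 9.51 and 9.58 in NZO, against 9.79, 9.79, 9.78, 9.51 and 9.70 in C3H, a difference of -0.08 (SE 0.08). NRF2 is controlled mainly through protein stability, which transcript levels do not measure.

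**Figure D4:**
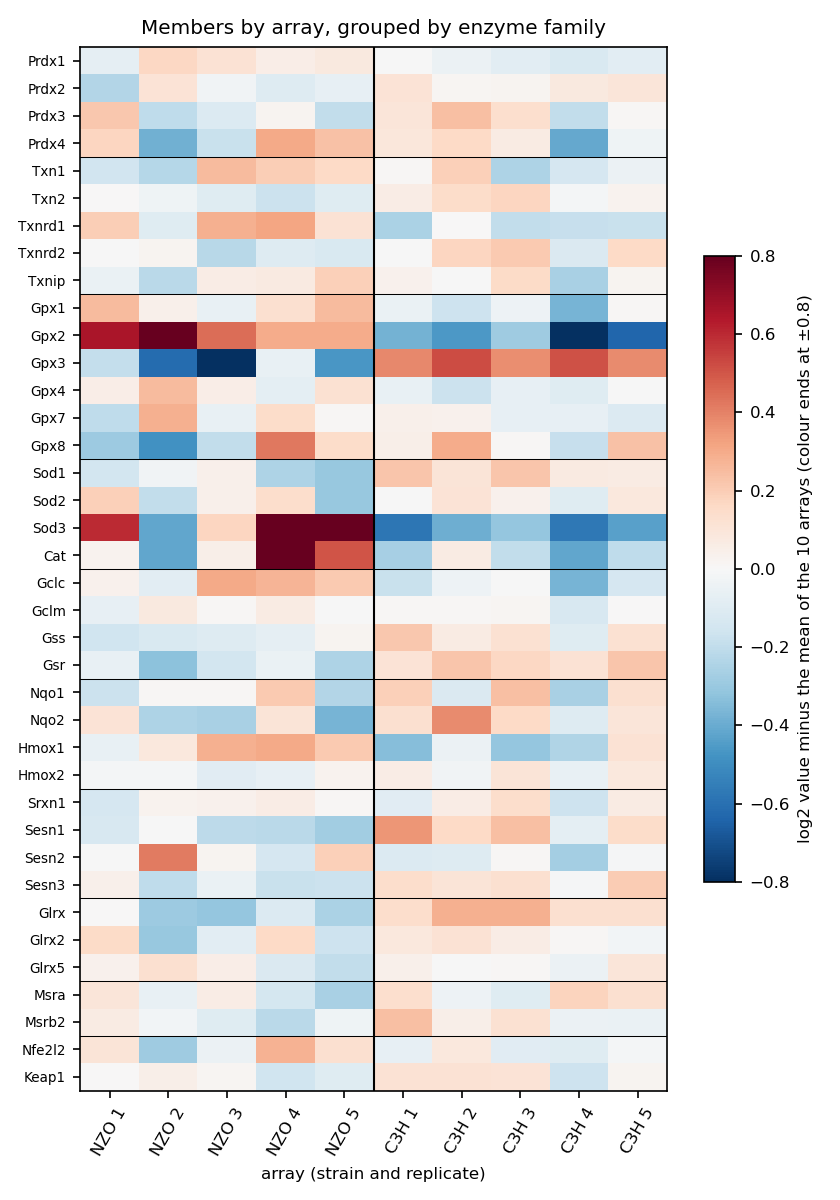
Log2 value of each of the 38 members (rows, by enzyme family) on each array (columns, NZO left of C3H) minus the mean of the 10 arrays, with colours ending at ±0.8. Gpx2 and Sod3 are mostly above and Gpx3 below their means in NZO, and most other rows stay pale, with 24 members differing by less than 0.2 log2 units.

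The promoter windows were searched for the core of the antioxidant response element, the site bound by NRF2, because it links many members in the literature. RefSeq windows on GRCm38.p6 were available for 33 of the 38 measured members, with 46 starts between them, and not for Sod3, Gclc, Gsr, Hmox1 and Msra. The motif TGACNNNGC, on either strand and within 250 bases upstream, occurred at 6 of the 46 starts, or 13.0%, and at 10.2% of all 32851 windows. Of these 6 members, Txnrd1 alone was called. The 29 bases around each match follow, 5′ to 3′ on the gene's strand, with the match in capitals, given as its reverse complement where it lies on the opposite strand. The positions are chr10:82859104-82859132 (plus strand) for Txnrd1, chr3:122245413-122245441 (plus) for Gclm, chr4:116685456-116685484 (plus) for Prdx1, chr16:90220696-90220724 (plus) for Sod1, chr4:132510474-132510502 (minus) for Sesn2 and chr2:75704885-75704913 (minus) for Nfe2l2.
Txnrd1: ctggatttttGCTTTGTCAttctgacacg
Gclm: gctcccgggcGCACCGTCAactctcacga
Prdx1: cagggaaagcGCTGAGTCAtcccccgtag
Sod1: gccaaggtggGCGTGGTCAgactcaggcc
Sesn2: cgcagcgggcTGACAGAGCcgggcgagcg
Nfe2l2: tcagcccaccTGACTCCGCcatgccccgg

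The related AP-1 type motif TGANTCA, whose letters read the same on both strands, occurred at 4 of the 46 starts (8.70%) and at 6.75% of all windows. It was found before both listed starts of Glrx, a gene lower in NZO, before Srxn1 at 2 places, and before Prdx1, where 1 of 2 matches overlaps the match printed above. The Glrx match lies at chr13:75839776-75839804 and the Srxn1 matches at chr2:152105411-152105439 and chr2:152105468-152105496, all on the plus strand, with the match in capitals.
Glrx: ctaggaagtacTGACTCAtaccaaaatga
Srxn1 first: ctcggagggccTGAGTCAccacgctgtgc
Srxn1 second: caaattcacccTGAGTCAgcggccgggcg
A match in these windows is a description of letters and not a bound site. The 2 stretches of Gpx2 and Gpx3 printed earlier hold neither motif, and no match was found in the rest of their 250 bases either.

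Grouped by place in the cell, the 7 measured mitochondrial members (Prdx3, Txn2, Txnrd2, Sod2, Glrx2, Glrx5 and Msrb2) all had negative differences, between -0.17 and -0.04 with a median of -0.11, and none passed. Over all genes 10993 of 19938 differences were negative. The signs of Sod2 and Glrx5 turned in some alternative fits. Of the 6 selenoproteins, Gpx2 and Txnrd1 were higher and Gpx3 lower, with a median of 0.20. The 2 secreted members, Gpx3 and Sod3, were called in opposite directions, and none of the 3 members of the endoplasmic reticulum passed.

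Within NZO, replicates 4 and 5 lay together at an end of the range for 14 members. Prdx4, Txnip, Gpx8, Sod3, Cat, Gss and Nfe2l2 were above replicates 1 to 3 there, and Txn2, Gpx2, Sod1, Sesn1, Glrx5, Msra and Keap1 were below them. The median SD of the members was 0.15 in NZO and 0.12 in C3H, beside 0.13 in NZO and 0.15 in C3H over all genes, and the SD was larger in NZO for 26 of 38. The widest were Sod3 (0.59) and Cat (0.49) in NZO. C3H replicate 4 was the lowest C3H array for 24 members. Over all genes tested its median was also the lowest of the 10 arrays (7.46), though over all probe sets it was the highest. How many of all genes share these array patterns was not counted, so they are not read as traits of the members. Without NZO replicates 4 and 5, 4 members were called (Gpx2 higher and Gpx3, Gsr and Glrx lower), or 10.5% of 38, against 5.54% of all genes (3.07% higher and 2.47% lower). With the acinar score as a covariate, Gpx2 and Gpx3 were called, or 5.26% of 38, against 1.04% of all genes (0.572% higher and 0.471% lower).

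**Figure D5:**
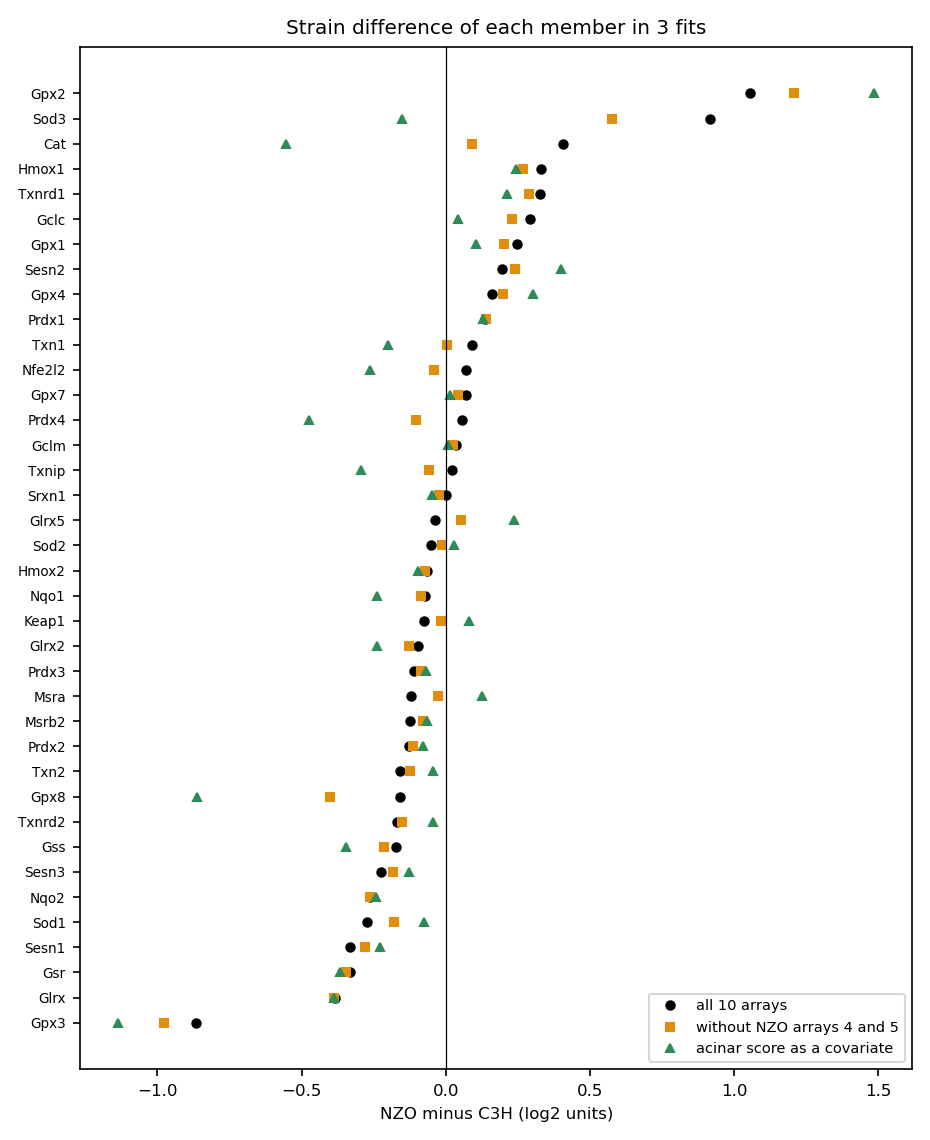
Difference NZO minus C3H in log2 units (x axis) of the 38 members (y axis) with all 10 arrays, without NZO arrays 4 and 5, and with the acinar score as a covariate. Gpx2 and Gpx3 move away from 0 (to 1.49 and -1.14 with the covariate), and so does Gpx8 (to -0.86). Gsr stays between -0.37 and -0.33 and Glrx between -0.39 and -0.38. Sod3 and Cat cross 0 with the covariate (to -0.15 and -0.55).

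Genes that feed these enzymes were read from 8 further lists of textbook neighbours, also chosen with earlier results of these data known. Of 90 measured, 10 were higher and 5 lower in NZO, with a median difference of 0.07. Over all genes 5.47% were higher and 4.61% lower, so the count of lower genes was near that background. Among genes above median brightness, refitted alone, 9.12% were higher and 8.08% lower. In that fit 13 related genes were higher and 8 lower. The number of related genes it tested is not given here, so no share is set beside these counts. None of the counts is read as a trait of these lists. In the NADPH supply list, with a median of 0.23, 1 of 7 passed, Me1, the cytosolic malic enzyme. It was 10.53 ± 0.11 in NZO and 10.11 ± 0.14 in C3H with no overlap, a difference of 0.42 (SE 0.08, limma adjusted p = 0.00492). The Me1 difference passed without NZO replicates 4 and 5 (0.38, limma adjusted p = 0.0429) and did not with the acinar covariate (0.28, limma adjusted p = 0.964). Pgd (0.33, limma adjusted p = 0.0694) and Idh1 (0.30, limma adjusted p = 0.0532) did not overlap between the strains either, but did not pass. With the acinar covariate they were -0.24 and 0.08, and 2 of the 7 differences in the main fit were negative. Of 11 genes of cystine uptake and glutathione turnover, only Abcc1, an exporter of glutathione conjugates, passed (0.34, SE 0.10). Abcc1 lost its call without NZO replicates 4 and 5 (0.25), and also when NZO replicate 3, 4 or 5 or C3H replicate 1 or 3 alone was dropped (limma adjusted p up to 0.0985). With the acinar covariate Abcc1 was 0.08 (SE 0.19) and did not pass.

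The selenocysteine machinery held a gene called in each direction among 9 measured. Sephs2, which makes the selenium donor for selenocysteine, read 9.79, 9.81, 9.81, 9.87 and 9.49 in NZO, against 9.15, 9.37, 9.25, 9.00 and 9.21 in C3H. The strains did not overlap, and the difference was 0.56 (SE 0.09, limma adjusted p = 0.00108), or 1.47-fold, and 0.61 without NZO replicates 4 and 5. With the acinar covariate it was 0.72 and did not pass (limma adjusted p = 0.132). Scly, the lyase that frees selenium from selenocysteine, was 10.36 ± 0.27 in NZO and 10.80 ± 0.11 in C3H (-0.44, SE 0.12, limma adjusted p = 0.0257). The Scly call ended without NZO replicates 4 and 5 (-0.27), and also on dropping NZO replicate 3, 4 or 5 or C3H replicate 1, 3 or 5 alone (limma adjusted p up to 0.0759).

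Of 20 NRF2 partners and targets, 4 were higher and 2 lower. The carbonyl reductase Cbr3 was higher by 0.53 (SE 0.08, limma adjusted p = 0.000849) and the exporter Abcc4 by 0.65 (SE 0.12, limma adjusted p = 0.00295), whereas Ugdh, which makes UDP-glucuronate, was lower by 1.39-fold (-0.48, SE 0.09, limma adjusted p = 0.00328). All 3 passed without NZO replicates 4 and 5, at 0.48, 0.56 and -0.58. With the acinar covariate none of the 3 passed, at 0.40 for Cbr3 (limma adjusted p = 0.660), 0.32 for Abcc4 (limma adjusted p = 0.999) and -0.76 for Ugdh (limma adjusted p = 0.0609). The list median was 0.08.

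Of 16 other thiol oxidoreductases, Mgst1, a membrane-bound glutathione transferase, was higher (1.02, SE 0.24), and Txndc12 (-0.28, SE 0.07) and Park7 (-0.30, SE 0.08), a redox-sensitive chaperone linked to Parkinson disease, were lower. Mgst1 read 7.83, 7.15, 8.14, 8.85 and 8.31 in NZO, against 6.87, 7.24, 7.30, 6.57 and 7.18 in C3H, in the same order of NZO arrays as Sod3 except that replicate 3 stood above replicate 1. Without NZO replicates 4 and 5 none of the 3 passed, at 0.68 for Mgst1 (limma adjusted p = 0.0865), -0.28 for Txndc12 (limma adjusted p = 0.121), a value hardly moved, and -0.19 for Park7 (limma adjusted p = 0.323). Dropping single arrays also ended the Txndc12 call (NZO replicate 3 or 5, or any C3H replicate except 4) and the Park7 call (NZO replicate 1, 4 or 5, or any C3H replicate except 4). With the acinar covariate Mgst1 was -0.13, Txndc12 -0.31 and Park7 -0.005, and none of them passed. Of 13 genes that produce reactive oxygen, only Cyba, a subunit of the phagocyte oxidase, was higher (0.49, SE 0.13, limma adjusted p = 0.0246). Cyba was 8.55 on NZO replicate 4 and 8.64 on NZO replicate 5, the arrays with the highest macrophage means, and 7.87 to 8.15 on the other NZO arrays, against 7.63 to 7.83 in C3H. The Cyba call ended without NZO replicates 4 and 5 together (0.27, limma adjusted p = 0.162), and when NZO replicate 4 or 5 or C3H replicate 1 or 3 alone was dropped (limma adjusted p up to 0.0689). The part of macrophage RNA in that value was not tested. None of the 6 metal-handling genes passed.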

How the data were processed

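Total RNA was amplified and labelled with biotin for Affymetrix arrays, per the labels' protocols. Per the submitters' processing notes, the authors used RMA in Affymetrix Expression Console, and the deposited values are on the log2 scale. This method corrects background and quantile-normalizes, and it leaves no detection call. Its version, library file and build were not given in the sources used here.

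Of 35556 probe sets, 21789 had 1 gene symbol, 1621 several and 12146 are unnamed here. The probe set with the highest mean was kept per gene (999 genes had several), which left 19938 genes, none filtered. Each difference is NZO minus C3H, fitted with lmFit and eBayes (limma 3.58.1, R 4.3.3). The tests are two-sided and were adjusted by Benjamini-Hochberg across the 19938 genes, with a threshold of 0.05. The fit was tested on simulated data with independent noise. Such noise lacks shifts that many genes share, like those along the acinar score, so that test says nothing about them. Replicate numbers follow deposition order. The members, families, lists and alternatives were chosen with earlier results of these data known. Members past the threshold, the 5 brightest, Nfe2l2 and Keap1 are given array by array, and up to 3 called genes of each further list are named. Beyond these, genes shown array by array were chosen after their values were seen. Alternatives left out each array or NZO replicates 4 and 5, added the acinar score as a covariate, weighted arrays, used trended robust moderation, centred arrays, averaged probe sets or filtered dim genes. Promoter windows are RefSeq's on GRCm38.p6.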

Additional observations from a re-analysis of the deposited data

Results flagged for a closer look

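In 5 of 100 groups of 5 arrays (50 genes in 2 strains), a single array stood apart from the other 4 by Dixon's criterion, about the 1 in 20 that chance gives. Gclm was 10.87 on C3H replicate 4, against 11.00 to 11.01 on the other C3H arrays. Srxn1 was 10.31 on NZO replicate 1, against 10.45 to 10.50 on the others. Abcc4 was 9.79 on NZO replicate 2, against 10.32 to 10.44. Arrdc4 was 8.75 on NZO replicate 2, against 9.18 to 9.34. Sephs2 was 9.49 on NZO replicate 5, against 9.79 to 9.87.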

How the results depend on the processing

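The strains are separate animals and nothing in the labels pairs their arrays, so no paired analysis was run. The labels give no replicate numbers, and those used here follow the order of deposition. All 18 alternatives were run, 10 of them leaving out an array. The acinar score was higher on every NZO array than on every C3H array, so the fit with it as a covariate has little to separate score from strain, and the SE of Gpx2 was 0.26 with it, against 0.14 without it. With the covariate, members called were 1 higher and 1 lower, all genes 114 higher and 94 lower, and related genes 0 higher and 1 lower (Ephx1, at -1.0, which was -0.20 and not called without the covariate), and family medians moved to -0.11 (superoxide dismutases and catalase), -0.17 (glutathione synthesis and recycling), -0.17 (quinone reductases and heme oxygenases), -0.24 (glutaredoxins), 0.030 (methionine sulfoxide reductases) and -0.091 (sensor and factor). Without NZO replicates 4 and 5, 1 member was higher, all genes gave 613 higher and 492 lower, and related genes 5 and 2. Array weights gave 10 members lower, 1815 genes higher and 2310 lower, and 20 related genes higher and 15 lower. Trended robust moderation gave 5 members higher. The filter at the median raised the count of related genes lower from 5 to 8. It gave a superoxide dismutase and catalase median of -0.051, since Sod3 was then not tested.

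Leaving out 1 array at a time gave 2 to 5 members higher and 3 to 7 lower, 772 to 1509 genes higher and 641 to 1574 lower, and 8 to 19 related genes higher and 1 to 11 lower. The highest counts lower came without C3H replicate 4 (7 members, 1574 genes, 11 related genes), and without NZO replicate 2 there were 5 members and 19 related genes higher. Related genes lower numbered 1 when C3H replicate 3 or 5 was dropped, 2 when C3H replicate 1 or 2 was, 2 when NZO replicate 3, 4 or 5 was, and 3 for NZO replicate 1.

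The sign turned with the covariate for Prdx4 (-0.48), Txn1 (-0.20), Txnip (-0.29), Sod2 (0.029), Sod3 (-0.15), Cat (-0.55), Glrx5 (0.24), Msra (0.13), Nfe2l2 (-0.26), Keap1 (0.081), Mgst1 (-0.13), Cyba (-0.19) and Scly (0.063). It turned without NZO replicates 4 and 5 for Prdx4 (-0.10), Txnip (-0.057), Glrx5 (0.052) and Nfe2l2 (-0.041), with array weights for Prdx4 (-0.031), and with arrays centred on their median for Txnip (-0.0048). With an array left out, Prdx4 ran from -0.040 to 0.16, Txnip from -0.039 to 0.079, Sod2 from -0.10 to 0.018, Srxn1 from -0.043 to 0.033 and Glrx5 from -0.073 to 0.0064. None of these turned values passed the threshold, and the causes were not tested. The values come without a measure of background signal, so no detection limit can be set here for dim members such as Gpx7 and Sod3.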
